A study of Arabidopsis thaliana with 28 samples.

Results

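Open chromatin of BA-treated wild-type roots was compared with that of BA-treated wild-type shoots in Arabidopsis thaliana. The comparison used 6 of the 28 samples of the series: 4 root libraries and 2 shoot libraries of Col-0, each treated for 45 min with 5 µM BA in liquid MS medium. BA (benzyl adenine) is a synthetic cytokinin, a plant hormone of cell division and greening. The accessibility assay was ATAC-seq, in which Tn5 transposase cuts and tags DNA that is not covered by nucleosomes, here in DAPI-stained nuclei sorted by fluorescence. The nuclei came from whole roots or whole shoots, so a value is a mixture of all cell types of the organ; plant age was not given in the sources used here. Other libraries were read only to see whether the differences recurred: 4 root and 2 shoot libraries of Col-0 kept 45 min in vehicle, and 4 root libraries of the arr1,10,12 genotype, named for the type-B regulators ARR1, ARR10 and ARR12, 2 with BA and 2 with vehicle. The series text calls the samples biological replicates.

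Each library came as a list of peaks, which are stretches of open chromatin given by chromosome, start and end. Peaks that overlapped in any of the 6 BA libraries were merged into 37990 regions, of which 31269 were open in 2 or more libraries and were analysed. For genes, the measure was the covered percent: the percent of a window that lay under peaks in a library. A window was a protein-coding gene with 1 kb on both sides, and 24160 of 27444 windows held a peak base in 2 or more of these 6 and entered the test. Neighbouring windows overlap, so a peak can count for more than one gene. Differences are in percentage points, roots minus shoots, with the standard error (SE) and adjusted p of limma over all windows tested.

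Roots take up water and mineral nutrients, and their surface, endodermis and tip are built by cell types that shoots lack, while leaves carry the photosynthetic tissue. Accessible DNA marks promoters, enhancers and, at some highly used genes, the gene body. Cytokinin is sensed by histidine kinase receptors, passed on by histidine phosphotransfer proteins (AHPs) and turned into transcription by type-B response regulators. Those activate type-A response regulators, which feed back to dampen the signal.

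Peak lists of the organs were of like length but not of like width. Root libraries held 35228, 32575, 32171 and 32144 peaks, against 34538 and 31904 in shoot libraries. The ranges overlapped, and the means of 33029.5 ± 1479 (SD, n = 4) in roots and 33221 ± 1863 (SD, n = 2) in shoots differed by -191.5 (exact permutation p = 0.933). Left out in turn, root replicate 3, root replicate 4 and shoot replicate 1 turned that difference to 94.7, 103.7 and 1126. Peaks covered 26.98, 25.9, 24.1 and 25.1 Mb in roots, against 22.7 and 21.6 Mb in shoots. Every root library thus covered more than either shoot library, by 3.37 Mb between the means. Median peak width was 513, 510, 486 and 515 bp in roots, against 433 and 457 bp in shoots, again without overlap. With 4 libraries against 2 there are 15 splits, and the smallest two-sided exact p is 0.133. Both measures reached it (exact permutation, adjusted p = 0.4 over 6 measures). The remaining measures, shares of peak midpoints by distance to genes, did not separate the organs. Midpoints in gene bodies made up 49.0 and 38.7% in shoot replicates 1 and 2, against 38.0 to 41.9% in roots (exact permutation, adjusted p = 0.8). Shoot replicate 1 thus lay outside the root range and far from the other shoot library. Read depth is unknown, as the lists hold no reads, so depth and width cannot be told apart here.

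**Figure D1:**
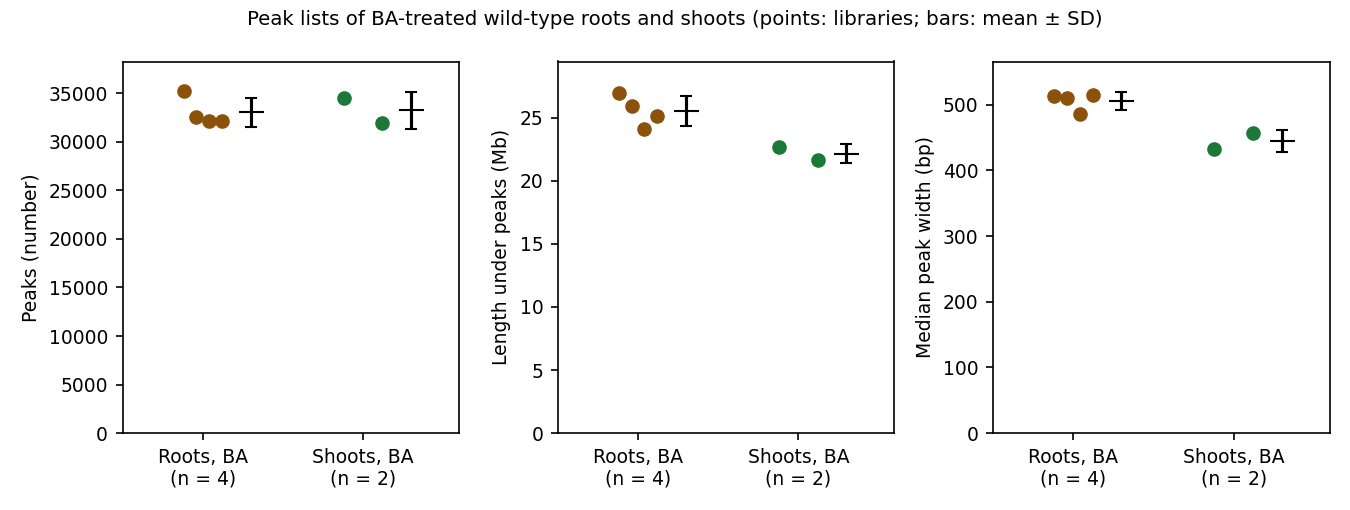
Number of peaks, length under peaks in Mb and median peak width in bp for each BA-treated wild-type library, with mean ± SD beside the points (4 root and 2 shoot libraries). Peak numbers overlap, while all root points lie above both shoot points for length (24.1 to 26.98 against 21.6 and 22.7 Mb) and width (486 to 515 against 433 and 457 bp).

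The 6 libraries grouped by organ. The Jaccard index, the shared length of 2 peak sets over their joint length, averaged 0.802 between root libraries (6 pairs, 0.789 to 0.827), 0.743 for the one shoot pair and 0.600 between organs (8 pairs, 0.573 to 0.620). No pair across organs reached the lowest pair within an organ. Pairs within an organ exceeded pairs between organs by 0.193 (one-sided exact permutation p = 0.0667, the smallest that 15 splits allow).

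The labels were checked against marker genes of each organ. Over all windows tested, limma called 20.3% higher in roots and 7.81% higher in shoots. Mean cover of all these windows was 29.3 to 32.3% in root libraries and 25.7 and 27.9% in shoot libraries. Of 14 root markers, 5 were called higher in roots, 0 in shoots, 8 did not pass and 1 was not tested; their mean covered percent was 16.8 to 21.4% in root libraries, against 8.36 and 8.55% in shoot libraries. Of 13 shoot markers, 0 were called higher in roots, 6 in shoots, 6 did not pass and 1 was not tested; their mean was 12.4 to 14.9% in root libraries, against 37.2 and 34.6% in shoot libraries. RBCS2B (AT5G38420) had no peak base in any root library, and PLT1, PLT2 and SMB had none in either shoot library. PLT1 and SMB were also little covered in roots, over 5.39, 0, 0 and 0% and over 0.326, 14.5, 0 and 0.570%. PLT1 was not tested and SMB did not pass, so their absence in shoots is a weak check. Besides FAMA, the shoot marker MUTE (3.12 points) and the root markers WER (-0.83) and CASP5 (-0.219) leaned against their organ without passing. The shoot stem cell gene STM was without a peak in all 6 libraries, so it gave no check. The stomatal gene FAMA, a shoot marker, was covered over 3.20, 0, 0 and 0.0196% in roots and 0% in shoots and did not pass. In whole organs, fewer cells with an open site and narrower opening in each cell cannot be told apart.

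Most open regions were shared. A peak stood in all 6 libraries at 19140 regions, 61.2% of those kept. Root-only regions, with a peak in all 4 root and no shoot libraries, numbered 2664 (8.52%), and shoot-only regions, with a peak in both shoot and no root libraries, numbered 1669 (5.34%). The smallest Fisher's exact p for such a region is 0.0667, so 0 regions passed by presence after adjustment and 0 had an unadjusted p under 0.05; limma on covered percent called 7102 regions (22.7%) more covered in roots and 3132 (10.0%) more covered in shoots. Centred on the mean of each library, the counts were 5067 and 5004. Of the uncentred calls, 3951 (55.6%) of the root ones and 1102 (35.2%) of the shoot ones had a peak in all 6 libraries, so many differences were in width. Shoot-only regions made up 1614 of the 3132 shoot calls. With 1 shoot library left, these have a peak in 1 library and cannot be tested. The 1102 shoot calls with a peak in all 6 libraries could still be tested. When shoot replicate 1 or shoot replicate 2 was left out, limma called 0 regions more covered in shoots.

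**Figure D2:**
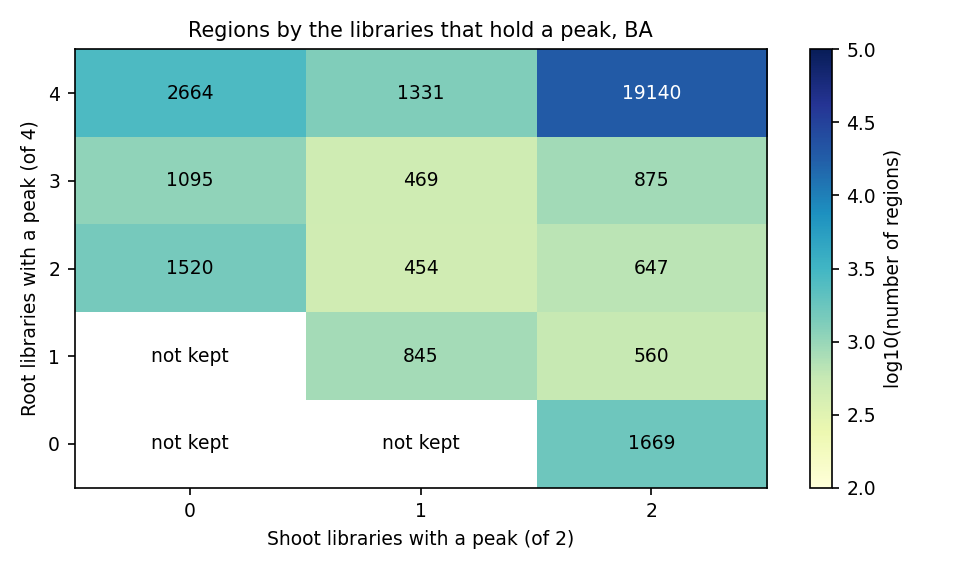
Number of kept regions for each combination of root libraries with a peak (vertical, of 4) and shoot libraries with a peak (horizontal, of 2); the colour scale is log10. The 19140 regions open everywhere form the largest cell, and the separated corners hold 2664 root-only and 1669 shoot-only regions.

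Separated regions were narrower than shared ones and lay away from genes more often, a description without a test. Median width was 572 bp for root-only and 396 bp for shoot-only regions, against 983 bp for regions in all 6 libraries. A region joins the overlapping peaks of its libraries, so regions with a peak in more libraries tend to be wider by construction. A wide region is also more likely to meet a peak in every library. These widths therefore do not compare the peaks themselves. The midpoint lay over 1 kb away from protein-coding genes for 24.4% of root-only and 25.7% of shoot-only regions, against 12.3% of regions in all 6. It lay in a gene body for 29.5% of root-only, 37.8% of shoot-only and 41.7% of shared regions. In length, root-only regions held 1.38 to 1.59 Mb of peaks in root libraries and shoot-only regions 0.731 and 0.750 Mb in shoot libraries. Regions present in all 6 libraries held 21.3 to 22.6 Mb in roots, against 19.4 and 19.8 Mb in shoots.

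The 6 widest separated regions of each organ are given with the gene at or nearest to their midpoint. The widest root-only region spanned 5218 bp at chr5:17033125-17038342 (TAIR10), 1934 bp from CYP71A16, a cytochrome P450 of the marneral cluster; it was covered over 90.8, 97.7, 85.8 and 88.1% in roots and 0% in both shoot libraries. The next spanned 4419 bp over PBP1, a jacalin-type lectin that binds the beta-glucosidase PYK10, at chr3:5577759-5582177. Others lay near WRKY72, a transcription factor of basal defence (chr5:4900891-4904659), GulLO2, a gulonolactone oxidase (chr2:19206771-19210117), AT1G13520 and AT1G53610. The widest shoot-only region spanned 8822 bp at chr1:21744907-21753728 with its midpoint in AT1G58602 and was covered over 99.5 and 92.2% in shoots, against 0% in all 4 root libraries. AT1G58602 held a second one of 4558 bp. Further shoot-only regions lay at LTP, a lipid transfer protein gene (chr2:6518208-6522185), at AT1G51805, at WRR4, a white rust resistance gene (chr1:21169570-21172849), and at RLP19, a receptor-like protein gene (chr2:6532930-6535905). All 12 regions kept their organ in the vehicle libraries: the root-only ones were covered over at least 57.6% in vehicle roots and at most 12.7% in vehicle shoots, the shoot-only ones over at most 7.0% in vehicle roots and at least 50.7% in vehicle shoots.

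Libraries that had no part in the choice showed largely the same separation. Of root-only regions, 94.1 to 98.3% had a peak in each of the 4 vehicle root libraries, against 9.23 and 5.86% in the vehicle shoot libraries. Of shoot-only regions, 5.99 to 10.1% had a peak in the vehicle root libraries, against 87.9 and 80.2% in the vehicle shoot libraries. All 4 root and no shoot vehicle libraries had a peak at 2003 root-only regions (75.2%), both shoot and no root vehicle libraries at 1009 shoot-only regions (60.5%), and none was separated the other way. The arr1,10,12 roots carried the root pattern as well: 87.6 to 93.1% of root-only and 2.34 to 5.57% of shoot-only regions had a peak there. All 4 mutant libraries had a peak at 2143 root-only regions (80.4%) and none did at 65, while 1512 shoot-only regions (90.6%) had no peak in any mutant library.

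**Figure D3:**
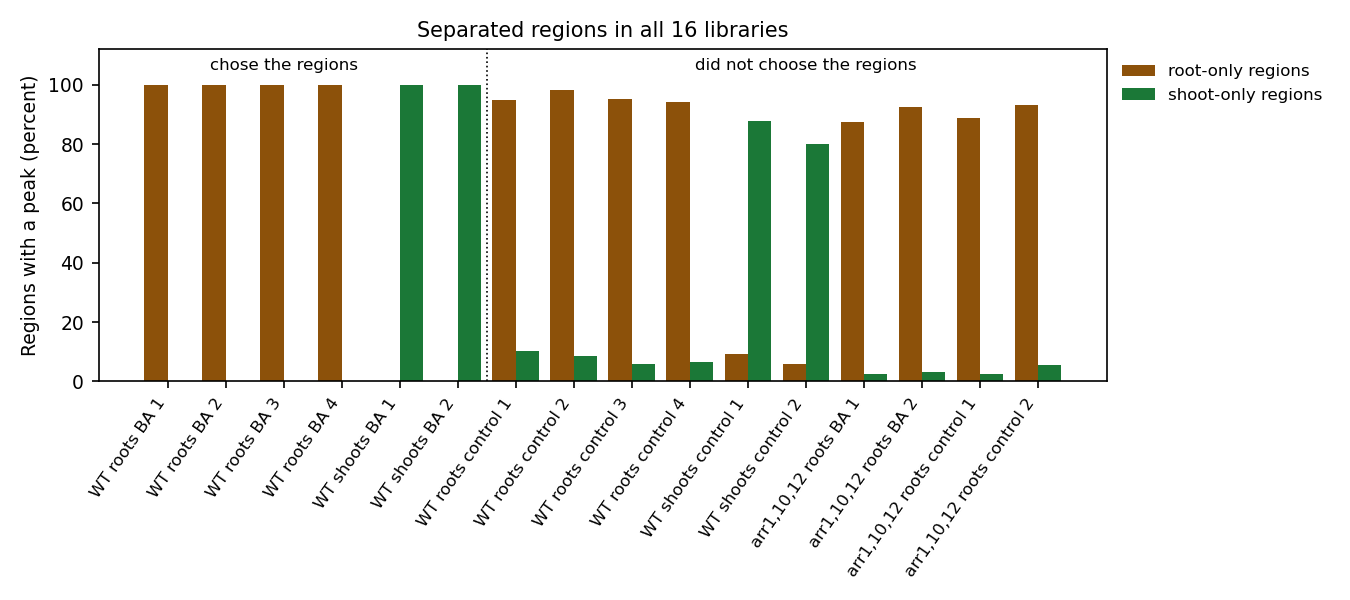
Percent of the 2664 root-only and 1669 shoot-only regions with a peak in each of the 16 libraries; the 6 left of the dotted line chose the regions, so their bars are fixed at 100 or 0. Among the other 10, root-only bars reach 87.6 to 98.3% in root libraries of both genotypes and 5.86 to 9.23% in vehicle shoots, while shoot-only bars reach 2.34 to 10.1% in root libraries and 80.2 and 87.9% in vehicle shoots.

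The authors' deposited tables list 760 differential regions for roots and 685 for shoots, with no direction. In the authors' deposited table for roots, 76 regions (10.0%) overlapped a root-only region, 0 a shoot-only one and 650 (85.5%) a region open in all 6 libraries. In the authors' deposited table for shoots, 35 (5.11%) overlapped a shoot-only region, 0 a root-only one and 612 (89.3%) a region open in all 6. Among all kept regions 8.52% were root-only, 5.34% shoot-only and 61.2% open in all 6. Those shares count regions rather than list entries, and an excess of overlap was not tested. By length, regions open in all 6 held 26.5 of the 32.97 Mb of kept regions. The counts of 0 carry little weight. An entry from one organ could hardly meet a region where that organ has no peak under BA. Entries in the authors' deposited table for roots met root-only regions at CYP735A2 (chr1:25061437-25063407), THAD1, THAH1 and THAS1 (chr5:19455547-19457142), and one whose nearest listed gene, 8334 bp away, was MRN1. Entries in the authors' deposited table for shoots met shoot-only regions at LHCB1.4 (chr2:14524267-14525392), LHCB2.1 (chr2:1821620-1823447), AN3 and RBCS2B.

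At gene level, limma called 4913 of 24160 windows (20.3%) more covered in roots and 1888 (7.81%) more covered in shoots, at an adjusted p under 0.05. In all 6801 called windows the root and shoot libraries did not overlap; over all windows tested, every root library lay above both shoot libraries in 35.4% and below both in 13.9%. The median difference over all windows was 2.26 points and the mean 3.81; mean cover of all windows was 29.3 to 32.3% in root libraries and 25.7 and 27.9% in shoot libraries. When each library was centred on its mean, 3421 windows (14.2%) were more covered in roots and 3689 (15.3%) in shoots, so the share of calls on the root side was 72.2% uncentred and 48.1% centred. Both fits shared 3395 root calls and 1888 shoot calls. Without shoot replicate 1, 2764 windows were called in roots and 886 in shoots; without shoot replicate 2, 3008 and 1458.

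The organ differences recurred without cytokinin. Of the 4913 root windows, 4911 had the same sign between vehicle roots and vehicle shoots, and 3810 (77.5%) passed the test there. Of the 1888 shoot windows, 1784 had the same sign and 1029 (54.5%) passed. None was called the opposite way. Across 24021 windows the BA and vehicle differences had a Pearson correlation of 0.934, a description over windows that are not independent.

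The single windows with the largest root excess were covered almost end to end in roots. PBP1 (AT3G16420) was covered over 98.7, 99.7, 100 and 100% of its window in the 4 root libraries and 0% in the 2 shoot libraries, a difference of 99.6 points (SE 2.21, adjusted p = 4.09e-05). PYK10 (AT3G09260), the beta-glucosidase of root ER bodies, was covered over 100% in roots and 5.92 and 9.29% in shoots, a difference of 92.4 points (adjusted p = 4.09e-05). UPI (AT5G43580), a protease inhibitor gene, differed by 97.6 points, with 100, 100, 100 and 90.3% in roots and 0% in shoots. These windows hardly opened in shoots and the organs lay far apart. The region over PYK10 ran for 13868 bp at chr3:2837960-2851827, and 10 neighbouring windows there were called in roots. GIK (AT2G35270), an AT-hook DNA-binding protein gene, was covered over 90.9, 92.7, 91.2 and 90.98% in roots and 0% in shoots. ZFP5 (AT1G10480), a zinc finger regulator of root hairs, was covered over 99.5, 100, 94.3 and 97.8% in roots and 0 and 12.98% in shoots. AHL19 (AT3G04570), another AT-hook gene, and GulLO2 differed by 89.7 and 87.5 points. Loci without a symbol, AT4G25400, AT3G16432, AT5G51780, AT2G37820 and AT1G62975, differed by 88.9 to 97.3 points, all with non-overlapping libraries. AT1G62975 is a neighbour of the root hair expansin gene EXPA18, and one region covers both.

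Of the 12 windows with the largest shoot excess, most had no peak base in roots, while CWLP, UGT85A1, LHCB2.1 and ECS1 had some cover in roots. LTP (AT2G15050) was covered over 0% in roots and 80.6 and 88.4% in shoots, a difference of -84.5 points (SE 2.504, adjusted p = 6.94e-05). ECS1 (AT1G31580) was covered over 10.5, 0, 0 and 0% in roots and 81.9 and 87.3% in shoots (-81.9 points, adjusted p = 0.000214). XTH16 (AT3G23730), a xyloglucan-modifying enzyme gene, was covered over 0% in roots and 74.3 and 77.4% in shoots. All 4 root libraries had no peak base at XTH16 or LTP, and a root library at ECS1 had one. CWLP (AT3G22120), a cell wall protein gene, was covered over 10.5, 17.99, 12.1 and 13.5% in roots and 90.2 and 88.2% in shoots. WRR4 (AT1G56510) was covered over 0% in roots and 84.7 and 60.3% in shoots, the widest spread between the shoot libraries among these genes. ELP (AT1G12090), an extensin-like protein gene, LOL1, a regulator of cell death, AT2G10940 and AT2G21210 were also at 0% in all 4 root libraries and differed by -71.8 to -77.9 points. Windows at 0 in all roots cannot be tested when only 1 shoot library is left, since they then have a peak in 1 library; this holds for LTP, XTH16, WRR4, ELP, LOL1, AT2G10940, AT2G21210 and the 3 RBCS genes named further on.

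**Figure D4:**
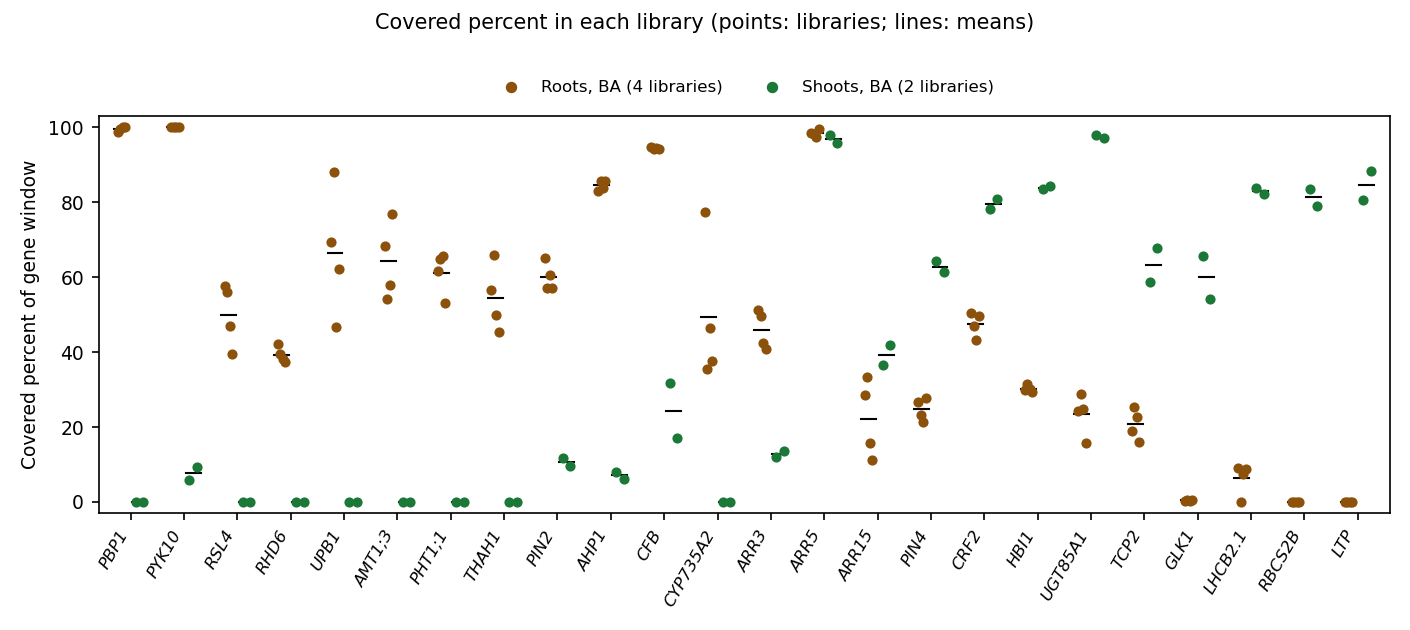
Covered percent of the gene window in each library for 24 named genes, with 4 root libraries left of 2 shoot libraries for each gene and a line at the mean. Libraries of the organs do not overlap except at ARR5, where roots hold 97.5 to 99.6% and shoots 95.7 and 97.9%; ARR15 did not pass the test although its libraries do not overlap.

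Of the 254 genes in 17 lists, 241 were tested, and 59 list entries were called in roots and 57 in shoots. Photosynthetic genes were on the shoot side. Of 39 light harvesting and photosystem genes, 1 was more covered in roots and 20 in shoots, against 20.3% and 7.81% of all windows, and the list's median difference was -17.7 points against 2.26 over all windows. Centred, the counts were 1 and 27. LHCB2.1 (AT2G05100), a chlorophyll a/b-binding protein of the photosystem II antenna, was covered over 8.99, 0, 7.33 and 8.77% in roots and 83.9 and 82.2% in shoots, a difference of -76.8 points (SE 3.15, adjusted p = 0.00015). Its region at chr2:1821620-1823447 was shoot-only. LHCB1.3 (AT1G29930) was covered over 15.7, 6.19, 8.61 and 11.5% in roots and 72.8 and 62.1% in shoots. LHCB2.2 (AT2G05070) was covered over 6.17, 0, 0 and 0% in roots and 53.3 and 35.1% in shoots. PSAL (AT4G12800), a photosystem I subunit, was covered over 36.4, 32.7, 43.1 and 39.6% in roots and 81.3 and 76.5% in shoots (-40.96 points, adjusted p = 0.00112), so it was open in both organs and wider in shoots. LHCB1 genes are near-identical copies, and how reads of such copies were placed is not stated, so their split is uncertain. FD2, a ferredoxin gene, was the one member called in roots, by 34.0 points. The LHCB4.1, LHCA1 and PSBO1 windows did not pass and differed by 6.27, 5.77 and 5.31 points.

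Carbon fixation genes followed, with 0 of 13 called in roots and 7 in shoots, against 20.3% and 7.81% of all windows. The median was -19.4 points, and centred counts were 0 and 9. RBCS2B, a small subunit of Rubisco, was covered over 0% in roots and 83.7 and 78.99% in shoots (-81.3 points, adjusted p = 4.09e-05). RBCS3B (AT5G38410) was covered over 0% in roots and 76.1 and 67.5% in shoots. RBCS1B (AT5G38430) was covered over 0% in roots and 72.5 and 57.97% in shoots. These 3 genes lie side by side and are near-identical, so they are not independent. CA1 (AT3G01500), a carbonic anhydrase, was covered over 18.9, 29.2, 24.3 and 16.3% in roots and 54.8 and 48.04% in shoots (-29.2 points, adjusted p = 0.00562). RCA, the Rubisco activase gene, differed by -19.4 points without passing.

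Among 14 genes of greening and chlorophyll synthesis, 2 were called in roots and 6 in shoots, against 20.3% and 7.81% of all windows. The median was -5.82 points, and centred counts were 1 and 7. GLK1 (AT2G20570), a transcription factor of chloroplast development, was covered over 0.314, 0.494, 0.337 and 0.404% in roots and 65.6 and 54.3% in shoots (-59.6 points, adjusted p = 0.000269). GATA21 (AT5G56860), a cytokinin-responsive regulator of greening, was covered over 13.6, 16.7, 14.2 and 15.2% in roots and 43.1 and 57.8% in shoots. GLK2 (AT5G44190) was covered over 29.97, 17.4, 14.9 and 21.2% in roots and 50.4 and 45.9% in shoots, and its call was lost without shoot replicate 1 (adjusted p = 0.0673). The regions at GLK1 and GATA21 were shoot-only, with open chromatin in every shoot library and in no root library. HEMA1 (AT1G58290), which starts tetrapyrrole synthesis, went the other way by 18.1 points, and this call was lost on centring (adjusted p = 0.0846) and when any one library other than root replicate 2 was left out (adjusted p up to 0.184).

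Of 31 genes of the shoot meristem and leaf, 30 were tested, with a median of -4.32 points. In roots 3 were called and in shoots 10 (centred 0 and 14), against 20.3% and 7.81% of all windows. TCP2 (AT4G18390), a regulator of leaf shape, was covered over 18.9, 25.4, 22.8 and 16.02% in roots and 58.8 and 67.9% in shoots (-42.6 points, adjusted p = 0.00114). TCP10 (AT2G31070) was covered over 26.6, 27.6, 25.04 and 22.2% in roots and 58.6 and 63.5% in shoots. YAB1 (AT2G45190), a gene of the abaxial leaf side, was covered over 10.8, 11.9, 11.9 and 10.5% in roots and 30.6 and 45.3% in shoots. All 3 had regions with a peak in both shoot libraries, and at TCP10 and YAB1 no root library had one. TCP3 (AT1G53230) differed by -30.3 points and lost its call without root replicate 4 or shoot replicate 1 (adjusted p up to 0.125). WUS, the stem cell organiser, differed by -1.68 points and did not pass. In stomata and trichomes 7 of 8 genes were tested, with a median of -8.74 points under BA and 0.835 under vehicle. Most lists had a lower median under BA than under vehicle, and this shift was not tested. Against 20.3% and 7.81% of all windows, 0 were called in roots (centred 0) and 2 in shoots (centred 3). These were SPCH, which starts the stomatal lineage (7.72, 7.84, 7.05 and 7.07% in roots, 19.6 and 31.98% in shoots), and its neighbour TRY, a repressor of trichomes (6.17, 6.09, 2.92 and 6.78% in roots, 16.6 and 19.8% in shoots).

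Root hair and epidermis genes formed a root group: 7 of 12 tested were called in roots and 0 in shoots, before and after centring. Their median was 21.5 points, and of all windows 20.3% were called in roots and 7.81% in shoots. RSL4 (AT1G27740), a bHLH factor that drives hair growth, was covered over 57.6, 55.99, 47.1 and 39.4% in roots and 0% in shoots (50.03 points, SE 5.57, adjusted p = 0.00216). RHD6 (AT1G66470), which acts upstream of RSL4, was covered over 42.3, 39.6, 38.2 and 37.3% in roots and 0% in shoots. CPC (AT2G46410), a small MYB protein of hair fate, was covered over 76.4, 83.9, 84.4 and 90.8% in roots and 35.8 and 45.3% in shoots. RSL4 and RHD6 were thus without a peak in shoots, while CPC was open in both organs. EXPA18 (AT1G62980), a root hair expansin, was covered over 39.7, 57.5, 39.5 and 38.2% in roots and 6.79 and 0% in shoots, and without shoot replicate 2 its adjusted p was 0.0521. WER, COBL9, PRP3, LRX1 and RSL2 did not pass, with differences of -0.83, 4.05, 4.28, -3.36 and 4.14 points.

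Of 11 endodermal genes, 4 were called in roots and 1 in shoots, against 20.3% and 7.81% of all windows. The median was 11.4 points, and centred counts were 3 and 1. CASP4 (AT5G06200), a scaffold protein of the Casparian strip, was covered over 37.7, 37.1, 36.8 and 35.5% in roots and 23.1 and 24.1% in shoots (13.2 points, adjusted p = 0.00413). SHR (AT4G37650), a mobile factor that specifies the endodermis, was covered over 44.2, 40.8, 40.1 and 36.2% in roots and 29.1 and 24.6% in shoots. The difference at SHR lost its call without root replicate 2 or either shoot library (adjusted p up to 0.112). SGN3 (AT4G20140), a receptor kinase of the barrier, differed by 11.8 points. Its call was lost on centring (adjusted p = 0.0545) and without root replicate 4 or either shoot library (adjusted p up to 0.125), and over the gene body alone the difference was -0.345. PER64, a peroxidase of lignin in the strip, was called in shoots by -11.1 points, and CASP5 differed by -0.219 without passing.

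Of 18 genes of stem cells, root cap and lateral roots, 11 were tested, with a median of 6.72 points. In roots 5 were called and in shoots 0 (centred 4 and 0), against 20.3% and 7.81% of all windows. UPB1 (AT2G47270), a regulator of the transition from division to elongation, was covered over 69.3, 88.03, 46.8 and 62.1% in roots and 0% in shoots (66.6 points, adjusted p = 0.00802). Its root libraries spread widely, and the adjusted p was 0.0537 and 0.0603 with one shoot library left out. LBD29 (AT3G58190), a lateral root regulator, was covered over 37.9, 38.2, 35.2 and 38.2% in roots and 0 and 3.92% in shoots. LBD16 (AT2G42430), of the same pathway, was covered over 28.3, 26.3, 25.2 and 25.9% in roots and 5.02 and 9.06% in shoots. PLT2 (AT1G51190), a stem cell factor, was covered over 16.2, 11.1, 16.8 and 18.3% in roots and 0% in shoots. These 4 were open in all 4 root libraries at a region that no shoot library held. PLT1, BBM, RGF1, RGF2, RGF3, BRN2 and FEZ were not tested, since fewer than 2 libraries had a peak base there, and WOX5 did not pass at 6.72 points.

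Nutrient uptake held the most root calls of any list: 15 of 24 tested, with 2 in shoots, against 20.3% and 7.81% of all windows. The median was 16.2 points, and centred counts were 11 and 2. AMT1;3 (AT3G24300), an ammonium transporter, was covered over 68.2, 54.3, 57.8 and 76.9% in roots and 0% in shoots (64.3 points, SE 6.73, adjusted p = 0.00181). PHT1;1 (AT5G43350), a phosphate transporter, was covered over 61.6, 64.8, 65.6 and 53.03% in roots and 0% in shoots. NIP5;1 (AT4G10380), a boric acid channel, was covered over 75.3, 78.3, 75.8 and 81.3% in roots and 19.3 and 24.95% in shoots. AMT1;3 and PHT1;1 had root-only regions (chr3:8802962-8805724 and chr5:17401612-17403606). SULTR1;2 (AT1G78000), a sulfate transporter, was covered over 91.5, 93.1, 78.9 and 66.3% in roots and 40.6 and 45.8% in shoots, with an adjusted p of 0.0769 and 0.113 when one shoot library was left out. NRT2.1, FIT and FRO2, for nitrate uptake and iron uptake, were called in roots by 24.4, 21.9 and 12.2 points. The contrary members were the ammonium transporter AMT1;2 at -21.2 and the nitrate transporter NRT1.1 at -15.0 points. IRT1 did not pass at 20.6 points.

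All 4 tested genes of the root triterpene clusters were called in roots and 0 in shoots, also after centring. Of all windows, 20.3% were called in roots and 7.81% in shoots. The list's median was 46.8 points under BA and 23.6 under vehicle. The thalianol genes encode enzymes of a root triterpene: THAH1 (AT5G48000) was covered over 56.7, 66.01, 49.8 and 45.4% in roots and 0% in shoots (54.5 points, adjusted p = 0.00202). THAD1 (AT5G47990) was covered over 61.4, 63.7, 48.97 and 34.02% in roots and 0% in shoots. THAS1 (AT5G48010), the thalianol synthase, was covered over 34.8, 63.1, 37.4 and 30.6% in roots and 0% in shoots. Both shoot libraries were at 0% in these gene windows, although the 5783 bp region at THAD1, which reaches beyond its window, had a peak in both (10.7% covered on average). BA roots covered THAH1 over 54.5 ± 8.99% against 36.5 ± 13.4% in vehicle roots (SD, n = 4 each), a difference that was not tested here. In arr1,10,12 roots with BA, THAH1 averaged 20.7% (2 libraries). MRN1 (AT5G42600), the marneral synthase, differed by 13.3 points. The calls of THAD1, THAS1 and MRN1 were lost when either shoot library was left out, at adjusted p from 0.0567 to 0.119. BARS1 was not tested.

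Of 7 auxin transport genes, 3 were called in roots and 2 in shoots, against 20.3% and 7.81% of all windows. Centring left these 2 counts unchanged. PIN2 (AT5G57090), the efflux carrier of root gravitropism, was covered over 65.3, 57.01, 60.7 and 57.04% in roots and 11.7 and 9.698% in shoots (49.3 points, adjusted p = 0.000431). PIN4 (AT2G01420) was covered over 26.7, 23.1, 21.5 and 27.8% in roots and 64.3 and 61.4% in shoots (-38.05 points, adjusted p = 0.000541), so the carrier genes lay on both sides. PIN7 was called in shoots at -21.0 points, and PIN3 did not pass, at -4.89. The influx carrier AUX1 was covered over 73.1, 76.3, 73.01 and 72.1% in roots and 43.7 and 46.7% in shoots. LAX3 (AT1G77690) differed by 31.5 points, a call that was lost when any one library other than root replicate 4 was left out (adjusted p up to 0.195).

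**Figure D5:**
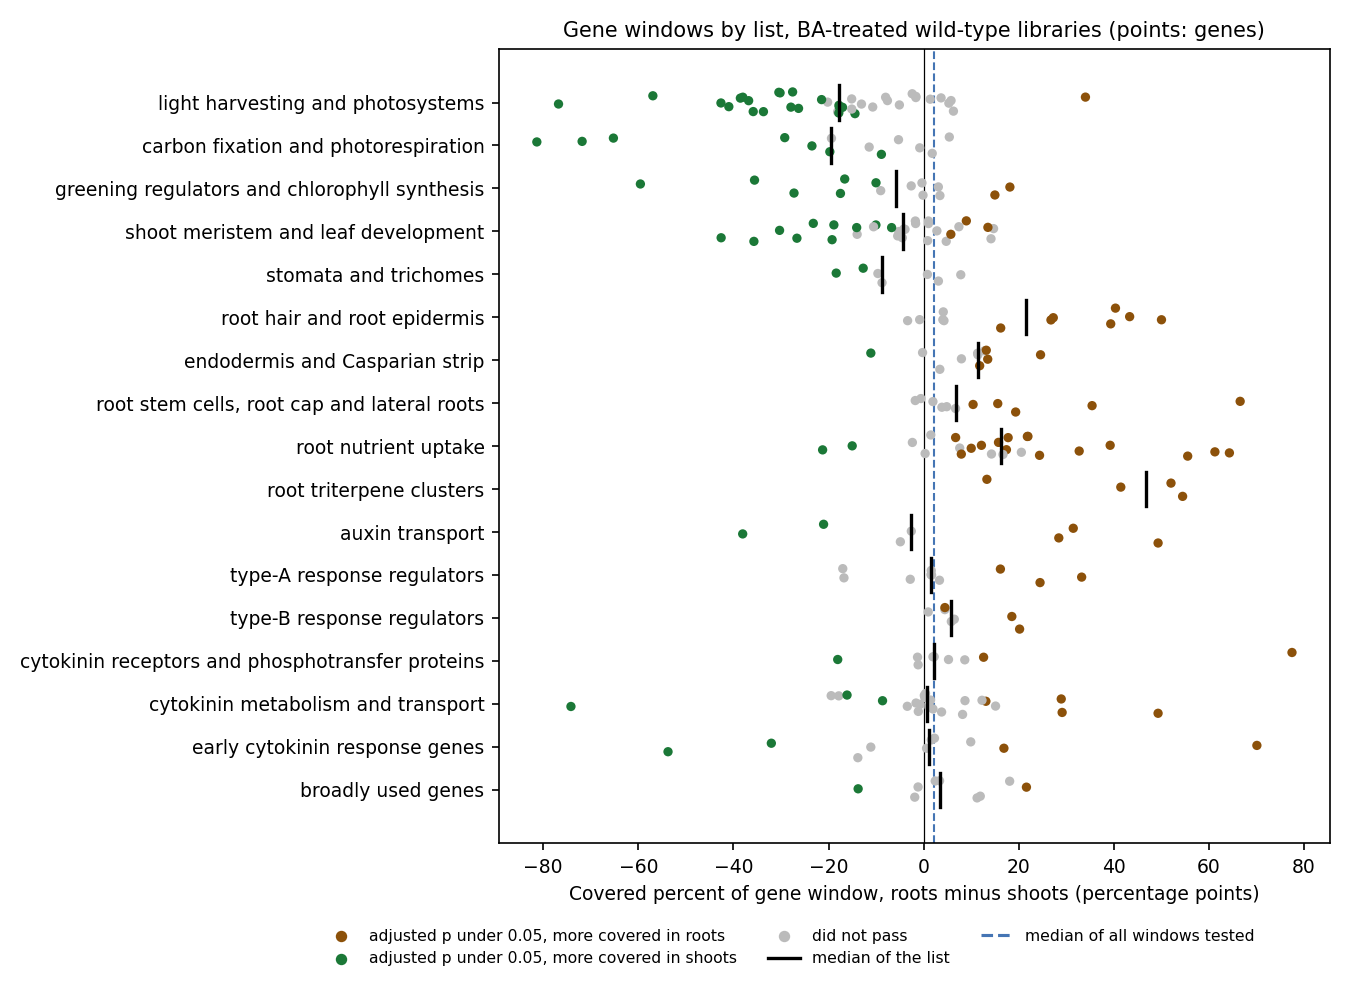
Root minus shoot difference in covered percent for each tested gene of the 17 lists, in percentage points; brown points are called in roots, green points in shoots and grey points did not pass, and bars mark list medians. The light harvesting median lies at -17.7 and the nutrient uptake median at 16.2 points, against the dashed line at 2.26 for all windows; cytokinin lists straddle that line.

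Cytokinin genes themselves were compared under the hormone; beside their counts, 20.3% of all windows were called in roots and 7.81% in shoots. Of the 9 receptors and AHPs, 2 were called in roots and 1 in shoots (centred 1 and 1), with a median of 2.22 points that turned to -1.59 on centring. AHP1 (AT3G21510), a phosphotransfer protein, was covered over 82.9, 85.7, 83.96 and 85.6% in roots and 7.99 and 6.15% in shoots (77.5 points, SE 2.43, adjusted p = 7.29e-05), among the clearest separations of the comparison. Its root-only region lay at chr3:7579340-7581356. AHP4 (AT3G16360) went the other way, with 22.2, 28.7, 18.2 and 20.2% in roots and 36.7 and 44.03% in shoots, and lost its call without shoot replicate 2 (adjusted p = 0.0975). AHK4 (AT2G01830), the CRE1 receptor of root vascular tissue, differed by 12.6 points. That call was lost on centring (adjusted p = 0.153) and when any one library other than shoot replicate 2 was left out (adjusted p up to 0.143). AHK2 and AHK3 did not pass, at 2.22 and 5.24 points.

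Type-B regulators were called in roots in 3 of 7 tested genes and in shoots in 0 (centred 2 and 0), with a median of 5.83 points. ARR10 (AT4G31920) was covered over 40.1, 46.5, 37.5 and 38.04% in roots and 19.3 and 24.6% in shoots (18.6 points, adjusted p = 0.0118), and without shoot replicate 1 the adjusted p was 0.0814. ARR12 (AT2G25180) differed by 20.2 points, with 53.6, 43.99, 50.4 and 60.1% in roots and 35.3 and 28.4% in shoots. It lost its call without root replicate 1, root replicate 3 or either shoot library (adjusted p up to 0.161). ARR11 (AT1G67710) differed by 4.48 points, a call lost on centring (adjusted p = 0.780) and when any one library other than root replicate 4 was left out (adjusted p up to 0.208). ARR1 did not pass at 6.46 points.

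Of the 10 type-A regulators, the feedback targets, 3 were called in roots and 0 in shoots; centred, the counts were 2 and 2 and the median was -2.17 points. ARR3 (AT1G59940) was covered over 51.2, 49.5, 42.4 and 40.9% in roots and 12.1 and 13.5% in shoots (33.2 points, SE 3.66, adjusted p = 0.00210). ARR17 (AT3G56380) was covered over 60.5, 67.9, 64.9 and 58.9% in roots and 32.1 and 45.02% in shoots, with an adjusted p of 0.0696 without shoot replicate 1. ARR8 (AT2G41310) was covered over 69.3, 72.6, 72.2 and 63.1% in roots and 49.7 and 56.6% in shoots. The ARR8 call was lost on centring (adjusted p = 0.0786) and when any one library other than root replicate 4 was left out (adjusted p up to 0.155). ARR5 was open over nearly its whole window in both organs, with 98.4, 98.2, 97.5 and 99.6% in roots and 97.9 and 95.7% in shoots. ARR7 (AT1G19050) was covered over 92.6, 81.9, 83.03 and 66.9% in roots and 100 and 95.7% in shoots (-16.8 points, adjusted p = 0.135; centred -20.6 points, adjusted p = 0.0430). ARR15 (AT1G74890) was covered over 28.6, 33.3, 15.7 and 11.2% in roots and 36.5 and 41.9% in shoots (-17.00 points, adjusted p = 0.125; centred -20.8 points, adjusted p = 0.0417). At both genes every shoot library lay above every root library, and the call depended on centring. ARR4 (AT1G10470), ARR6, ARR9 and ARR16 overlapped between organs, with means of 95.1, 76.3, 63.4 and 25.03% in roots and 91.7, 79.1, 61.8 and 23.5% in shoots; centring put ARR4, ARR5, ARR9 and ARR16 slightly below 0. The list's median difference was 1.64 points under BA and 9.84 under vehicle. Medians of the other lists were also lower under BA than under vehicle, except in the root triterpene list. Light harvesting, for one, had -17.7 points under BA and -10.1 under vehicle. Length under peaks was 22.7 and 21.6 Mb in BA shoots, against 23.1 and 19.7 Mb in vehicle shoots. Whether a list shifted with treatment was not tested. At ARR7, vehicle means were 35.9% in roots and 60.8% in shoots, and at ARR15 11.8 and 12.5%.

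Among 24 genes of cytokinin metabolism and transport, 4 were called in roots and 3 in shoots (centred 4 and 5), with a median of 0.762 points, or -3.05 centred. UGT85A1 (AT1G22400), which glucosylates zeatin, was covered over 24.3, 28.9, 24.8 and 15.6% in roots and 97.98 and 97.2% in shoots (-74.2 points, adjusted p = 0.000295). The region there ran for 9818 bp (chr1:7902767-7912584) with a peak in all 6 libraries, so shoots were wider rather than alone. CYP735A2 (AT1G67110), a hydroxylase that makes trans-zeatin types, was covered over 77.5, 35.6, 46.4 and 37.7% in roots and 0% in shoots (49.3 points, adjusted p = 0.0321). Its call was lost without root replicate 3 or either shoot library (adjusted p up to 0.146). CYP735A1 (AT5G38450) was covered over 46.2, 27.2, 31.2 and 40.4% in roots and 8.66 and 5.94% in shoots, with an adjusted p of 0.0774 and 0.0864 with one shoot library left out. LOG7 (AT5G06300), an activating enzyme, was covered over 94.4, 98.2, 99.1 and 96.9% in roots and 65.1 and 70.9% in shoots. The synthesis gene IPT1 and the activating gene LOG8 were called in shoots, by -8.64 and -16.1 points, and the oxidase gene CKX2 in roots, by 13.1.

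Of 10 early cytokinin response genes, 2 were called in roots and 2 in shoots (centred 1 and 3), against 20.3% and 7.81% of all windows. Their median was 1.12 points, or -2.69 centred, against 2.26 over all windows. CFB (AT3G44326), an F-box gene induced by cytokinin, was covered over 94.8, 94.3, 94.4 and 94.3% in roots and 31.7 and 17.1% in shoots (70.1 points, adjusted p = 0.000365). HBI1 (AT2G18300), a growth-promoting bHLH gene, was covered over 29.8, 31.4, 30.2 and 29.4% in roots and 83.6 and 84.3% in shoots (-53.8 points, adjusted p = 0.000133). CRF2 (AT4G23750), a cytokinin response factor, was covered over 50.4, 46.9, 43.2 and 49.8% in roots and 78.3 and 80.9% in shoots. The organs separated at all 3 genes, CFB towards roots and the others towards shoots. LBD3 (AT1G16530) differed by 16.9 points, a call lost on centring (adjusted p = 0.0604) and when any one library other than root replicate 4 was left out (adjusted p up to 0.170). Of 9 broadly used genes, 1 was called in roots and 1 in shoots, against 20.3% and 7.81% of all windows. GAPC2 (AT1G13440), a glycolytic enzyme gene, differed by 21.6 points and ACT7, an actin gene, by -13.8, and both calls were lost when either shoot library was left out (adjusted p from 0.0507 to 0.103); ACT7 also lost its call without root replicate 1.

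Whether the organ difference depended on BA was tested by limma's interaction over the 12 wild-type libraries. Of 24629 windows, 0 passed at an adjusted p under 0.05, the smallest being 0.102, and 877 (3.56%) had an unadjusted p under 0.05. Without BA shoot replicate 1, BA shoot replicate 2, vehicle shoot replicate 1 or vehicle shoot replicate 2, 6, 25, 11 and 10 windows passed. CYP78A7, a P450 gene of organ growth, had among the smallest p: it was at 0% in all 4 BA roots and 19.4 and 25.3% in BA shoots, against 6.15, 0, 0 and 0% in vehicle roots and 3.89 and 0% in vehicle shoots (interaction -22.0 points, adjusted p = 0.102). CSLG3, a cellulose-synthase-like gene, differed by -30.1 points under BA and -13.9 under vehicle (interaction -16.3, adjusted p = 0.102). MEE47 differed by 2.48 points under BA and -11.0 under vehicle (adjusted p = 0.633). AT4G24975, AT4G12530 and LCR67, a defensin-like gene, had interactions of -17.3, -8.26 and -9.48 points, with peaks that were in BA shoots and, but for AT4G24975, in no vehicle library. AT5G04267, AT1G28005, AT1G28000 and AT5G36800 had interactions of 7.64 to 11.1 points, with peaks in vehicle shoots alone.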

How the data were processed

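Open chromatin was measured by ATAC-seq; 6 of 16 deposited peak lists entered the comparison, and the 12 RNA libraries were left out. The submitters' processing notes name the build TAIR10 and the tools HOMER 4.9.2, deepTools 2.5.2, Bowtie 1.2.0 and SAMtools 1.5, with no settings. Per the file headers and values, the deposited lists hold chromosome, start and end only, with no score or reads, so the depth of each library is unknown and no counting error can be given. Positions are therefore the only unit used, and the covered percent was computed from them. The authors' peak calling sets peak width, and how far the depth of a library moves it was not tested.

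Peaks were merged where they overlapped by at least 1 bp; a region was kept with a peak in at least 2 of 6 libraries. Gene names and extents came from a RefSeq table of TAIR10.1, used only for names and windows. In 61 of 61 bins of 2 Mb its genes and the peaks were aligned within 100 bp (largest offset 50 bp). It gives no strand. No promoter sequence was used here. Covered percent was tested with limma 3.58.1 in R 4.3.3 (trend and robust, Benjamini-Hochberg, threshold 0.05). Library values were tested by exact permutation over 15 splits. A run of limma on simulated data changed only windows of middling cover, with noise drawn independently for each window. It is no check for windows at either end of the scale or for neighbours that share peaks. Alternatives were centring, gene body alone, 2 kb flanks, no filter, the arcsine scale, no variance trend, a replicate block, peaks under 150 or 300 bp left out, and each library left out.

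Named genes were up to 4 called members per list with the largest difference, the 12 per direction with the largest differences over all genes, all type-A regulators, the 6 widest separated regions per direction and the 5 per direction with the smallest interaction p. List members outside these, given with a difference alone, were chosen after their values were seen. Some genes that the rule names are not reported here. The members and lists were chosen with earlier results of these data known.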

Additional observations from a re-analysis of the deposited data

Results flagged for a closer look

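Of 95 groups of 4 libraries, 10 held a library whose gap to the nearest other one was, as a share of the group's range, above Dixon's 95% critical value. Chance gives about 1 in 20. All were groups of BA-treated roots, the only group compared that has 4 libraries, so a flag could not fall on shoots. At LHCB2.2, ECS1, UPI and AT4G25400 the other libraries were tied, so any gap is the whole range. The rate of 1 in 20 does not apply to such ties. One root library had 35228 peaks, against 32144 to 32575 in the others. At LHCB2.2 one had 6.17% covered and the others 0, and at ECS1 one had 10.52% and the others 0. EXPA18 had one at 57.5%, above 38.2 to 39.7%, and LBD29 one at 35.2%, below 37.9 to 38.2%. UPI had one at 90.3% and AT4G25400 one at 93.7%, where the others were at 100%. AT5G51780 had one at 90.5%, below 97.3 to 98.6%. GIK had one at 92.7%, above 90.9 to 91.2%, and AHL19 one at 96.1%, above 90.8 to 91.4%. At each of the 9 genes named here the root and shoot libraries stayed apart. These genes were named because they were called, and no called window overlapped, so this is no check of the outliers.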

How the results depend on the processing

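With 300 bp as the least peak width, an alternative chosen after seeing that no peak was under 150 bp, the peak number differed by 1138 in favour of roots; leaving out each library gave -1508.5 to 1126, with 94.7 and 103.7 between. The Jaccard difference was 0.181 to 0.216 without each library. Gene windows called in roots numbered 2118 with the gene body alone and 2764 to 4583 without each library; those in shoots 1093, 3689 when centred, and 886 to 1756. Regions called in shoots numbered 5004 when centred and 0 to 3285 without each library; those in roots 5067 when centred and 5566 to 7137 without each library. Interaction windows numbered 0 to 25 without each library. Root-only regions numbered 4101 when a peak had to cover 50% of the region, and 2765 to 3448 without each library. Shoot-only regions numbered 0 to 1986, the 0 because a region with 1 shoot library left cannot reach 2 libraries. Such regions then do not enter limma either, so they cannot be among the regions it calls. Regions with a peak in all 6 libraries, which held 1102 of the shoot calls, still enter it. SGN3 turned to -0.345 with the gene body alone. ARR4 turned to -0.472 centred and ranged from -0.983 to 7.66 without each library, and ARR5 to -2.20 centred. ARR9 turned to -1.37 with the gene body alone, -2.14 centred and -4.13 to 7.47 without each library (-0.928 without root replicate 3), and ARR16 to -2.26 centred and -1.43 to 4.82 without each library (-0.432 without root replicate 2). The causes of these changes were not tested.

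Replicate numbers are shared by only 2 pairs, and the labels do not say that a number marks a batch. Same-numbered libraries deviated together with correlations of 0.133 and 0.307. Root replicates 3 and 4, which have no same-numbered shoot library, had 0.0765 and 0.104 with shoot replicate 1. Values with the other shoot library mirror these in sign, since deviations from the mean of 2 libraries are opposite. With the replicate block, 2154 gene windows were called in roots and 568 in shoots, and 0 regions in either organ. Only the 2 same-numbered pairs inform the organ difference in that fit, and few degrees of freedom remain. Why calls were lost there was not tested. The interaction stayed at 0 with the block. Of 82 named genes that were called, 41 kept their call under every alternative run. Centring lost 6 calls and the replicate block 27. The gene body alone lost 23, besides SGN3, which turned sign there (limma adjusted p = 0.977). Leaving out a root library lost 4 to 8 calls, and leaving out a shoot library lost more. With 1 shoot library left, 10 of the called genes could not be tested. With 2 shoot libraries, peak positions without depth and no strand, small differences cannot be resolved.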

Other observations

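Gene families beyond the lists, chosen after their values were seen, also leaned to one organ. Among 155 families of at least 10 tested windows, the tau glutathione transferases (GSTU), detoxifying enzymes, had 14 of 25 windows called in roots and 1 in shoots, with a median difference of 14.4 points, and 12 and 2 when centred. The ABCC transporters had 8 of 13 in roots and 0 in shoots, but 2 and 0 when centred. On the shoot side, the auxin-induced SAUR genes had 0 of 13 in roots and 9 in shoots, with a median of -29.1 points. KCS genes, which elongate fatty acids for cuticular wax, had 0 of 18 in roots and 8 in shoots, and the CRK receptor kinases had 5 of 38 in roots and 14 in shoots. Over all tested windows 20.3% were called in roots and 7.81% in shoots, and members of a family often lie side by side.

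Called windows came in runs along the chromosomes. Runs of at least 5 neighbouring windows numbered 98 on the root side and 15 on the shoot side. Beside these counts, 20.3% of all windows were called in roots and 7.81% in shoots, so more root runs follow from the larger share. Centred, the shares were 14.2 and 15.3%, and runs are given for the uncentred calls only. The longest root run had 13 genes on chromosome 3, AT3G16380 to AT3G16490, with the nitrile specifier genes NSP1, NSP3 and NSP4, the lectin gene PBP1 and its relatives JAL31, JAL33 and JAL34, and a median of 54.0 points. The longest shoot run had 8 windows, AT3G03810 to AT3G03850, with SAUR26, SAUR27, SAUR28 and SAUR29 and a median of -29.6 points. Windows with 1 kb flanks overlap, so part of each run is the same peak read more than once.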
